A study of Mus musculus with 32 samples.

Results

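Frontal cortex (FCtx) arrays of single mice were ordered by the joint level of 4 activity genes, Fos, Arc, Junb and Egr1, and the 10 arrays with the highest score were compared with the 10 arrays with the lowest score across the other detected genes. The 20 arrays came from 32 in all, and the remaining 12 lay between them. Each array was 1 Illumina MouseRef-8 v2.0 BeadChip hybridization of total RNA from 1 mouse, on 4 chips of 8 arrays. The mice were hybrids labelled C57BL/6J x FVB/NJ F1, which the study's Methods describe as females of both reciprocal crosses. The 20 ethanol-treated mice had a free choice between water and 20% ethanol in limited daily sessions in the dark over 20 days, and the 12 controls were untreated. Tissue was the dorsal part of a frontal coronal section from which the olfactory bulbs had been removed. The study describes the drinking period as falling in early adulthood, without an age in weeks for the profiled animals.

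Fos, Arc, Junb and Egr1 are immediate early genes, which neurons transcribe within minutes of strong synaptic input without waiting for new protein synthesis. Calcium entry through receptors and channels activates kinases, these phosphorylate factors already bound at the promoters, and the products are in part transcription factors (Fos, Junb, the Egr family, Npas4) and in part proteins that act at the synapse or on the kinases themselves (Arc, Homer1, the Dusp phosphatases). Their RNAs are short-lived, so in cortex they are known as markers of recent neuronal activity, handling and arousal.

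The score was built as follows. The log2 signals were quantile-normalized over the 32 arrays, the value of each of the 4 genes was centred within its condition and chip (5 groups), the centred values were scaled to an SD of 1, and the 4 were averaged. All 4 genes were detected on all 32 arrays. Mean log2 signals over the arrays were 13.50 for Egr1, 10.68 for Arc, 9.08 for Junb and 9.02 for Fos. The score ran from -1.87 in control mouse C55 to 1.94 in ethanol-treated mouse A19. At the borders, the innermost of the 10 lowest arrays was C59 at -0.39, next to A3 of the middle arrays at -0.30, and the innermost of the 10 highest was C64 at 0.40, next to C57 of the middle arrays at 0.28. The border values lay close together, so the tiers are ranges of a continuous measure and not separate classes.

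**Figure D1:**
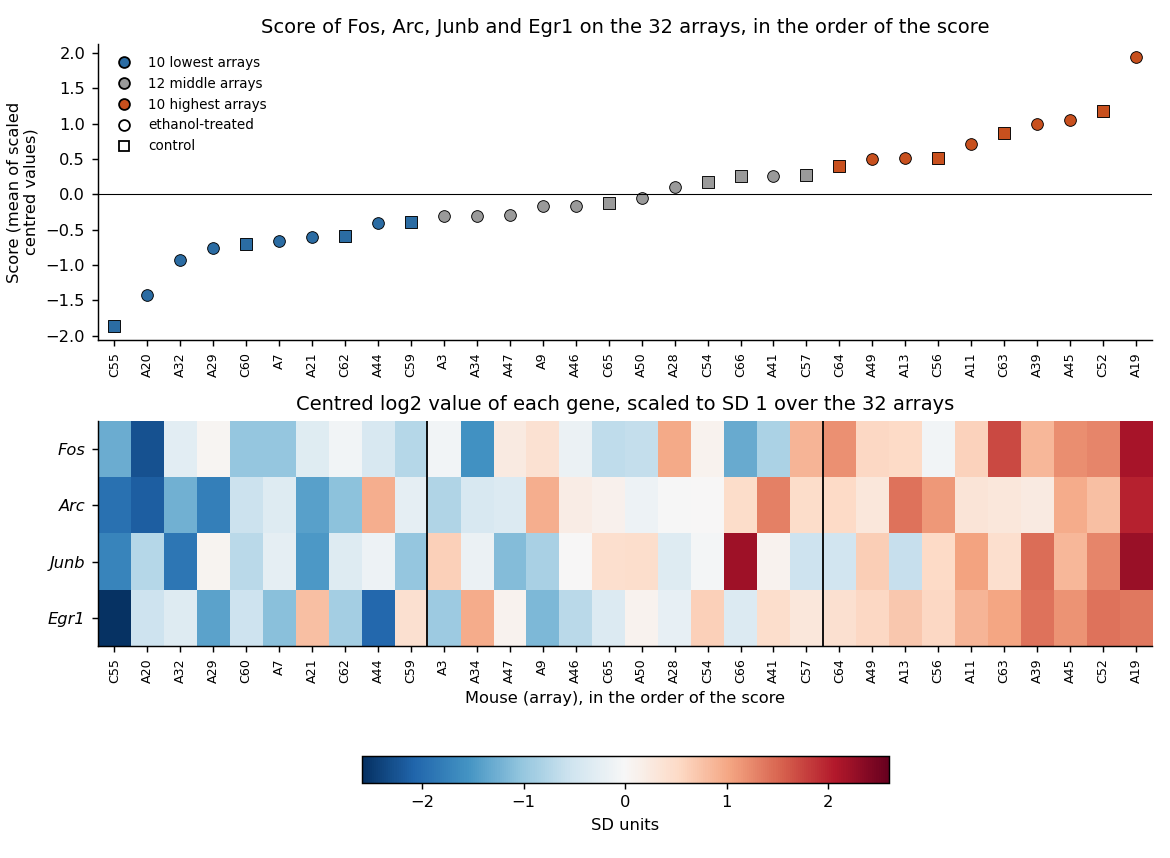
Upper panel: score (mean of 4 scaled, centred log2 values, in SD units) of each of the 32 arrays in rising order, with circles for ethanol-treated mice, squares for controls and colours for the tiers. Lower panel: the scaled value of each of the 4 genes on the same arrays; C55 and A19 hold the ends at -1.87 and 1.94, and single genes depart from the score, as Junb does on the array of C66.

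The arrays were chosen by the measured values of these 4 genes, which are therefore given only as a description. Arc, a cytoskeletal protein of dendritic spines that drives removal of glutamate receptors, had the widest range, with centred log2 values of 0.07 at the lowest, 0.20 at the median and 0.62 at the highest in the 10 highest arrays. In the 10 lowest arrays the same values were -0.67, -0.36 and 0.29, and the 2 means lay 0.55 apart. Arc alone did not separate the tiers, since the low array with the most Arc was above the median of the high ones.

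The distances between the tier means were 0.25 for Egr1, a zinc finger transcription factor, 0.25 for Fos and 0.24 for Junb, which are both subunits of the AP-1 transcription factor. The SD of the centred values over the 32 arrays was 0.31 for Arc and between 0.14 and 0.15 for the other three. Between pairs of the 4 genes, Pearson's r of the centred values over the 32 arrays ran from 0.367 (Fos and Junb) to 0.554 (Arc and Fos). These points share the normalization and the chips, and the r values are descriptive.

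Both conditions were in each tier, with 6 ethanol-treated mice and 4 controls among the 10 highest arrays and the same numbers among the 10 lowest. By condition and chip, the highest arrays held 3 ethanol-treated mice from chip 1, 2 from chip 2 and 1 from chip 3, with 2 controls from chip 3 and 2 from chip 4. The lowest held 3 from chip 1, 3 from chip 2 and 0 from chip 3, with 1 control from chip 3 and 3 from chip 4. Position on the chip was less even, since 8 of the 10 highest arrays, 4 of the 10 lowest and 4 of the 12 middle arrays were at even positions. On chips 1, 2 and 4, where position did not follow condition, the score was 0.31 ± 0.88 (SD, n = 12) at even and -0.31 ± 0.48 (SD, n = 12) at odd positions. The difference of 0.62 had p = 0.055 in a two-sided exact permutation test within chips over 343000 regroupings. Detected probes numbered between 10637 and 11544 in the highest and between 10688 and 11422 in the lowest arrays, with medians of 11210.5 and 10894.5. The part of position and detection in the results below was tested only as far as the alternative fits with position go.

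Of 7925 other genes detected on at least 24 arrays (detection p below 0.01), 0 differed between the 10 highest and the 10 lowest arrays at a threshold of 1% FDR or of 10% FDR, which is 0% of the genes tested (limma with the 5 condition-by-chip groups as blocks, Benjamini-Hochberg over the 7925 genes). At an unadjusted p below 0.05, 498 genes (6.28%) differed, 228 higher (2.88%) and 270 lower (3.41%) in the highest arrays. Median scaling in place of quantile normalization, with the score and both tiers drawn anew from it, gave 2222 higher and 5 lower genes. The median difference of all genes was then 0.121 instead of -0.003, so the directions below are relative to the bulk of the genes. How much came from the scaling and how much from the new tiers was not tested. For 0 genes did the 10 highest and the 10 lowest arrays fail to overlap (0% in either direction).

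Other activity genes stood first in that order. The gene with the smallest p was Egr4 and the next was Egr2, both of the Egr family of zinc finger factors to which Egr1 belongs, and neither was used for the score. Centred log2 values of Egr4 were -0.03, 0.15 and 0.42 (lowest, median and highest) in the 10 highest arrays and -0.29, -0.14 and 0.10 in the 10 lowest. The low arrays of C62 and A7 reached above the lowest of the high ones, that of A13, and all 10 of the highest arrays were above the median of the lowest. The fitted difference was 0.31 on the log2 scale (SE 0.06, 95% interval 0.18 to 0.44), or 1.24-fold, with an unadjusted p of 2.64e-05 and an adjusted p of 0.116 by limma.

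Egr2, which is known from neuronal plasticity and from myelinating Schwann cells, had centred log2 values of -0.07, 0.20 and 0.32 in the highest and -0.32, -0.13 and 0.03 in the lowest arrays. In 7 of the 10 highest arrays the value was 0.17 or above, whereas C56, C63 and A39 were between -0.07 and -0.06, inside the range of the low arrays. The difference was 0.31 (SE 0.06, 95% interval 0.17 to 0.44), with an unadjusted p of 2.92e-05 and an adjusted p of 0.116 by limma. Neither gene passed an FDR of 10% in this comparison.

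When the score entered as a continuous covariate over all 32 arrays, 1 gene passed an FDR of 1%, and it was Egr2, with a slope of 0.30 per distance between the tier means (SE 0.05, adjusted p = 0.00494 by limma). With odd or even position added, the slope was 0.31 and the adjusted p by limma was 0.00842. Pearson's r with the score over the 32 arrays was 0.757 for Egr2 and 0.616 for Egr4. For Egr4, adding position as a covariate to the comparison of tiers gave a difference of 0.35 and an adjusted p of 0.0765 by limma.

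Within the groups that held both tiers, Egr4 differed by 0.20 on chip 1 and 0.34 on chip 2 among ethanol-treated mice, and by 0.38 on chip 3 and 0.39 on chip 4 among controls. Egr2 differed by 0.43 and 0.18 in the same ethanol groups and by 0.44 and 0.13 in the control groups. These within-group values rest on 3 to 6 arrays each, and both genes were higher in the high arrays in all 4 groups. Leaving out 1 array at a time gave differences of 0.27 to 0.34 for Egr4 (adjusted p by limma 0.0452 to 0.565) and of 0.28 to 0.34 for Egr2 (0.0395 to 0.546). Egr4 passed an FDR of 10% without ethanol-treated mouse A7, A13 or A39 or control C56, and Egr2 passed it without A39, C56 or C63.

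**Figure D2:**
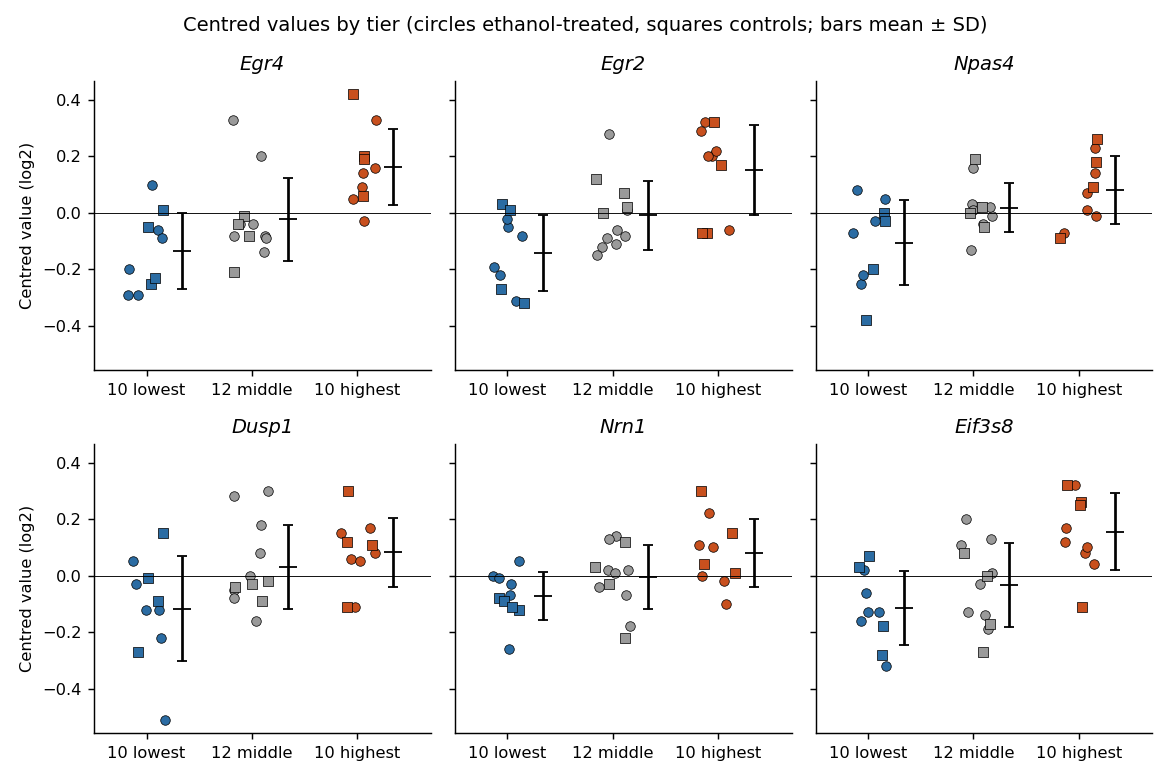
Centred log2 values (vertical axis) of 6 genes in the 10 lowest, 12 middle and 10 highest arrays, with a point for each array (circles ethanol-treated mice, squares controls) and mean ± SD bars. The tiers overlap for each gene, and for Egr4 and Egr2 all 10 high arrays are above the median of the low ones.

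In the list of 30 rapidly induced transcription factors, 13 genes were detected and tested, and 4 of them were higher in the highest arrays at an unadjusted p below 0.05 (30.8%, where 2.88% of all genes were), 0 were lower, and 8 had a positive difference. In the list of 35 activity-induced effectors, 19 were tested, 5 were higher (26.3%), 0 were lower and 15 had a positive difference. Over both lists this is 9 of 32 genes (28.1%), and 23 of 32 differences (71.9%) were positive, against 47.7% of all genes. The medians of the lists were 0.01 and 0.04, close to the -0.0033 of all genes, so the typical member of either list lay near 0 and a minority lay well above it. None of the 32 passed an FDR of 10% by limma in the comparison of tiers.

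**Figure D3:**
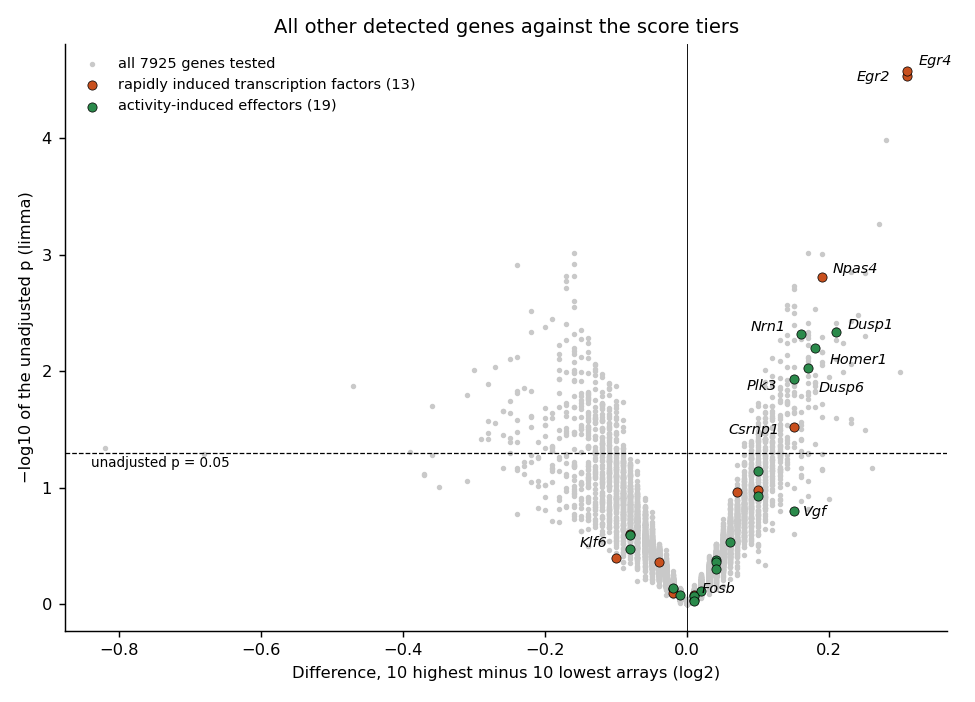
Difference between the 10 highest and the 10 lowest arrays (log2, horizontal) against −log10 of limma's unadjusted p (vertical) for 7925 genes, with the 13 tested rapid transcription factors and 19 tested effectors coloured. Egr4 and Egr2 are at the top at a difference of 0.31, and 9 coloured genes lie above the dashed line on the right and 0 on the left.

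Among the transcription factors, Npas4, which neurons induce upon calcium entry and which organizes inhibitory synapses, was the 14th of all genes by p. Its centred log2 values were -0.09, 0.08 and 0.26 in the highest and -0.38, -0.05 and 0.08 in the lowest arrays, and 8 of 10 high arrays were above the median of the low ones. The difference was 0.19 (SE 0.06, adjusted p = 0.751 by limma, unadjusted p = 0.00155). Csrnp1, a nuclear factor first found as a target of axin, had a difference of 0.15 and an unadjusted p of 0.0302.

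The other 9 transcription factors had differences between -0.10 and 0.10. Fosb, a partner of Jun in AP-1, had 0.01 (95% interval -0.10 to 0.11), and Jun itself had 0.01 (-0.08 to 0.10), and both intervals lie below those of Egr2 and Egr4. Klf6 had -0.10 with an SE of 0.12, Nr4a2 had -0.08, Klf2 -0.04, Ier3 -0.02 and Crem -0.02. Bhlhe40, a repressor that also acts in the circadian clock, had 0.10, and Zfp36, which destabilizes AU-rich messages, had 0.07.

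Among the effectors, Dusp1 and Dusp6 encode phosphatases that switch off MAP kinases. Dusp1 had centred log2 values of -0.11, 0.09 and 0.30 in the highest and -0.51, -0.11 and 0.15 in the lowest arrays, a difference of 0.21 (SE 0.07, unadjusted p = 0.00465, adjusted p = 0.751 by limma). In 9 of 10 high arrays it was above the median of the low ones, and the ranges overlapped widely. Dusp6, the phosphatase of ERK, had -0.16, 0.03 and 0.32 in the highest and -0.24, -0.12 and 0.09 in the lowest arrays.

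The difference of Dusp6 at its brightest probe was 0.17 (SE 0.06, unadjusted p = 0.0095). It had 3 detected probes that differed in size, since a dimmer one gave 0.33 with an unadjusted p of 2.24e-05 and an adjusted p of 0.102 by limma over all detected probes, and the dimmest gave 0.11. Dusp14, of the same family, had 0.02.

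Homer1, whose short activity-induced form uncouples synaptic scaffolds, had -0.03, 0.08 and 0.26 in the highest and -0.29, 0.00 and 0.13 in the lowest arrays. The difference was 0.18 (SE 0.06, unadjusted p = 0.00634) at the brightest probe and 0.09 at the other detected probe, and the files do not say which form each probe reads. Nrn1, a membrane-anchored protein that promotes neurite growth, had -0.10, 0.07 and 0.30 against -0.26, -0.08 and 0.05. Its difference was 0.16 (SE 0.05, unadjusted p = 0.00485), and that of Plk3, a polo-like kinase, was 0.15 (unadjusted p = 0.0117).

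The remaining 14 effectors had unadjusted p values above 0.05, with differences between -0.08 and 0.15. Vgf, a secreted neuropeptide precursor, had 0.15 with an SE of 0.10 and only 6 of 10 high arrays above the median of the low ones. Bdnf, the neurotrophin, had 0.10 (95% interval -0.03 to 0.23). Nptx2, which clusters AMPA receptors, had 0.04, Scg2 had 0.01 and Plk2 had 0.01, while Gadd45g and Inhba had -0.08 each. The Gadd45b difference was 0.06.

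Of the 65 genes in both lists, 33 were not tested. For 4 of them no probe carried the symbol, and for 20 every probe was detected on 0 arrays, among them Nr4a1, Nr4a3, Ier2, Btg2, Atf3, Ptgs2 and Sik1. The other 9 had probes detected on 5 to 23 arrays, short of the 24 required, among them Egr3, another relative of Egr1, on 8 arrays, Jund on 22 and Dusp4 on 23. No difference was computed for any of the 33.

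Promoters of Fos and Junb, and of the activity genes that were higher at an unadjusted p below 0.05 apart from Nrn1, were searched for TGACGT or its reverse complement ACGTCA, the core of the cAMP response element to which CREB binds. This core is also part of the full palindrome TGACGTCA. The RefSeq windows (build GRCm38.p6) hold 250 bases before and 50 bases after each gene's start, and 7.51% of all 32851 windows and 11.6% of the windows of tested genes contain the core on either strand. Among tested genes with a window, 843 of 6063 (13.9%) have it in at least 1 window, as have 3 of 11 rapid transcription factors (27.3%) and 7 of 16 effectors (43.8%). Of these 7 effectors, only Dusp1, Homer1 and Plk3 were among the higher genes. Stretches of 30 bases around the match nearest to the start are printed 5′ to 3′ on the gene's strand. Each match to the core on either strand is in capitals. Only genes with the core are printed, so its presence in every stretch follows from that choice and is not a result.
Fos: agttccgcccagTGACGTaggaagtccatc
Egr2: atatgggcagcgACGTCAcgggtattgaag
Egr4: gtttggtcatttACGTCAcggcgccagggc
Npas4: gACGTCAcgggaTGACGTcggaagtctggg
Dusp1: gtagggcgggTGACGTCAccgcccggtcac
Homer1: gtgagcggagggTGACGTatgtgcggagag
Plk3: agatctttcaggTGACGTaaggcggagcaa

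All 7 stretches lie upstream of the transcription start, because only matches whose stretch ended before the start were printed. For a gene with several windows, the window with the most matches was used. The Npas4 stretch holds the core on each strand, and that of Dusp1 holds the full palindrome. Arc, Egr1 and Nrn1 could not be searched, because no window was available for them. The Fos stretch is at chr12:85473812-85473841 on the plus strand, with the core starting 66 bases before the start. The Egr2 stretch is at chr10:67537801-67537830 (plus strand, 56 bases before), and 3 of the 5 windows of Egr2 contain the core. The Egr4 stretch is at chr6:85513682-85513711 (minus strand, 110 bases before), that of Npas4 at chr19:4990123-4990152 (minus strand, 169 bases before) and that of Dusp1 at chr17:26508596-26508625 (minus strand, 141 bases before). The Homer1 stretch is at chr13:93303705-93303734 (plus strand, 40 bases before) and that of Plk3 at chr4:117134078-117134107 (minus strand, 132 bases before). Windows of Junb, Csrnp1 and Dusp6 do not contain these letters, which says nothing about binding elsewhere. A match is a description of the sequence and not a measured site.

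Each score gene was also compared between tiers drawn from the other three, with no test, since all 4 genes were chosen for the score and 8 or 9 of the 10 arrays of each tier were shared with the original tiers. Arc then had centred values of 0.01, 0.13 and 0.62 in the 10 highest and -0.67, -0.25 and 0.30 in the 10 lowest arrays, a difference of 0.47. The differences were 0.20 for Egr1, 0.19 for Fos and 0.14 for Junb.

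Kinases and factors that act upstream of the activity genes were looked at next. Of 17 tested, 0 were higher or lower at an unadjusted p below 0.05, where 6.28% of all genes were, and the median difference was -0.02. The largest in size was Ep300, a histone acetyltransferase and coactivator, at -0.17 (SE 0.09), then Mef2c, a neuronal transcription factor, at -0.14 (SE 0.14) and Prkacb, a catalytic subunit of protein kinase A, at -0.12 (SE 0.07). Of 14 glucocorticoid-responsive genes 0 had an unadjusted p below 0.05, with a median of -0.04, and of 14 circadian clock genes 0 had, with a median of -0.02 and values of 0.09 for Per3 and -0.09 for Clock.

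Of 11 heat shock chaperones, 2 were higher (18.2%) and 0 lower at an unadjusted p below 0.05. The shares over all genes were 2.88% and 3.41%. Hspa8, the constitutive Hsp70 chaperone, had centred log2 values of -0.09, 0.16 and 0.44 in the highest and -0.47, -0.09 and 0.30 in the lowest arrays, a difference of 0.30 (SE 0.11, unadjusted p = 0.0101). Values on middle arrays ran from -0.87 to 0.50, beyond both tiers. Dnajb1, an Hsp40 cochaperone, had 0.12 (SE 0.05, unadjusted p = 0.0358).

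Markers of other cell types and regions were set beside these values. Neuronal markers had a mean log2 level over 8 genes of 12.51 to 12.72 in the highest and 12.45 to 12.70 in the lowest arrays. Of these 8 genes, 0 had an unadjusted p below 0.05, where 6.28% of all genes did. Medians were between -0.07 and 0.06 for the markers of interneurons, cortical layers, astrocytes, oligodendrocytes, microglia, vessels, blood, striatum and choroid plexus. Only 3 genes were tested for blood, 3 for upper layers and 1 (Enpp2) for choroid plexus, too few to assess those contents. The mean centred oligodendrocyte level ran from -0.30 to 0.81 in the highest and from -0.20 to 0.39 in the lowest arrays. Single members stood apart. Gad1, an enzyme that makes GABA, had -0.25 (SE 0.10, unadjusted p = 0.0182), Calb2, the calcium buffer calretinin, had -0.68 (SE 0.34), Aqp4, the astrocytic water channel, had -0.28 (SE 0.13) and Crym, a deep layer marker, had 0.21 (SE 0.07). Crym had 8 of 10 high arrays above the median of the low ones, and Gad1 had 0 of 10. Of the 9 deep layer genes 4 had a positive difference, with a median of -0.01, so Crym was not typical of its list. Of the 9 interneuron genes 5 had a positive difference (median 0.01), and so had 5 of the 11 astrocyte genes (median -0.03). Gad1, Calb2 and Aqp4 were therefore not typical of their lists either.

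Olfactory bulb markers were the list with the lowest median. Of 12 genes 8 were tested, and all 8 differences were negative, with a median of -0.22, where 47.7% of all genes were positive. At an unadjusted p below 0.05, 3 were lower (37.5%, where 3.41% of all genes were) and 0 higher. Cdhr1, a cadherin of mitral and tufted cells, had centred log2 values of -1.84, 0.06 and 1.11 in the highest and -0.81, 0.69 and 1.70 in the lowest arrays, a difference of -0.82 (SE 0.40, unadjusted p = 0.0453). Scgn, a calcium-binding protein of bulb interneurons, had -0.28 (SE 0.13), and Doc2g had -0.37 (SE 0.21). The mean centred level of the list ran from -0.63 to 0.38 (mean -0.08) in the highest and from -0.31 to 0.70 (mean 0.20) in the lowest arrays, so the tiers overlapped widely. Eomes and Tbx21, transcription factors of the bulb's projection neurons, were not among the detected genes.

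Calb2 and Gad1 are also abundant in the bulb, and whether their values here reflect bulb tissue was not tested. In whole tissue, fewer cells of a type cannot be told apart from less RNA per cell. With the oligodendrocyte, olfactory bulb and striatum levels as covariates, Egr2 had a difference of 0.32 (adjusted p = 0.373 by limma), and Egr4 passed an FDR of 10% only when position was added as well (0.30, adjusted p = 0.0682). With median scaling and tiers drawn anew from it, Cdhr1 had 0.04, Scgn 0.03 and Gad1 0.14.

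**Figure D4:**
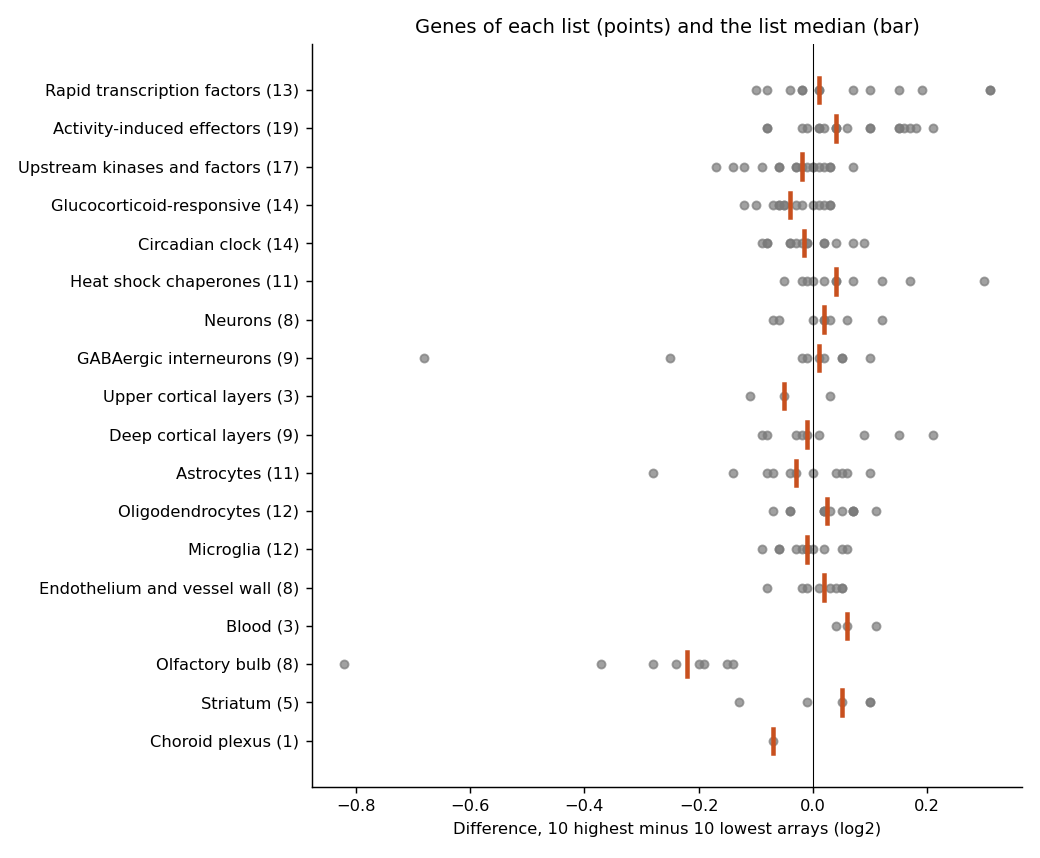
Difference between the 10 highest and the 10 lowest arrays (log2, horizontal) of each tested gene (points) in 18 lists, with the list median as a bar and the number of tested genes in brackets. The 8 olfactory bulb genes all lie left of 0 with a median of -0.22, and the rapid transcription factors reach 0.31 on the right.

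Genes outside the lists that came next by p were picked out after their values were seen. Eif3s8, a translation initiation factor subunit named as in the files, followed Egr4 and Egr2, with centred log2 values of -0.11, 0.14 and 0.32 in the highest and -0.32, -0.13 and 0.07 in the lowest arrays. Its difference was 0.28 (SE 0.06, adjusted p = 0.274 by limma), 10 of 10 high arrays were above the median of the low ones, and it passed an FDR of 10% only without control C56 (adjusted p = 0.0849). Within groups it ranged from 0.05 among controls on chip 3 to 0.45 among ethanol-treated mice on chip 2. Tspyl1, a nucleosome assembly protein family member, had 0.27 (SE 0.07, unadjusted p = 0.000552).

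Further genes with small p values were also picked after their values were seen, and not in the order of p. Others, such as Prrt1 and Ap1s1, were passed over. The voltage-gated potassium channel partners Kcnip2 and Kcnip4 had 0.23 and 0.25, and the neuropeptide gene Adcyap1, the 27th by p, had 0.15. On the lower side, Dpysl3, a growth cone protein, had -0.24 (SE 0.07), the phospholipase D family member Pld4 had -0.16 and the adhesion molecule Dscam had -0.17. All of these had an adjusted p of 0.751 by limma.

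Because 8 of the 10 highest arrays were at even positions, the named genes were also compared with position taken into account. With position as a covariate and the score centred within position too, so that the tiers were drawn anew, the differences were 0.28 for Egr2, 0.25 for Egr4, 0.21 for Dusp1, 0.16 for Npas4, 0.16 for Dusp6 and 0.13 for Plk3. These 6 activity genes moved by less than 1.5 times. The differences of Homer1 (0.11), Csrnp1 (0.09) and Nrn1 (0.05) were smaller by more than that.

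Outside the activity lists, Hspa8 had 0.05, Crym 0.10, Gad1 -0.05, Aqp4 -0.13, Cdhr1 -0.24 and Scgn -0.07 in the same fit, each smaller in size by more than 1.5 times than without position. Tspyl1 had 0.17, Kcnip2 0.11 and Dpysl3 -0.13. Eif3s8 (0.20), Pld4 (-0.15) and Dnajb1 (0.09) moved by less than 1.5 times, so such stability was not particular to the activity genes. With the continuous score and position, Crym had 0.07, Nrn1 0.07, Hspa8 0.07 and Eif3s8 0.16, while Egr2 had 0.31 and Dusp1 0.24.

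The relation to the score was compared between conditions by the interaction of score and condition. At an FDR below 10%, 0 of 7925 genes (0%) differed in slope by limma, and 250 (3.15%) had an unadjusted p below 0.05. For Egr2 the slope per unit of score was 0.19 (SE 0.04) in the 20 ethanol-treated mice and 0.15 (SE 0.05) in the 12 controls, a difference of 0.03 (SE 0.06, unadjusted p = 0.592 by limma). For Egr4 the slopes were 0.13 (SE 0.04) and 0.16 (SE 0.05), with a difference of -0.03 (SE 0.07). Npas4 had 0.08 and 0.13 (difference -0.05, SE 0.06), and Dusp1 had 0.13 and 0.10 (difference 0.03, SE 0.07). The SEs of the 4 differences lay between 0.06 and 0.07 and exceeded each difference in size, and a p above the threshold does not show that the slopes are alike.

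Because the score was centred within condition and chip, it leaves out the difference between conditions, and the activity genes were therefore compared between conditions on the uncentred values. Chips 1 and 2 held ethanol-treated mice only and chip 4 controls only, so chip and condition can be separated on chip 3 alone, and there all 4 ethanol-treated mice were at odd and all 4 controls at even positions. A fit with chip as a block also draws its difference from chip 3. Both fits therefore give the same difference and differ only in SE and p. Of 7929 genes, 24.6% differed at an FDR below 10% without a chip term, 10.3% higher and 14.3% lower in ethanol-treated mice (limma, Benjamini-Hochberg), 17.4% on chip 3 alone and 6.65% with chip as a block. At an FDR below 1% without a chip term, 7.87% differed.

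Arc had log2 signals of 9.65, 10.60 and 10.98 (lowest, median and highest) in ethanol-treated mice and of 10.36, 11.08 and 11.31 in controls. The difference was -0.50 (SE 0.11, n = 20 and 12, adjusted p = 0.00179 by limma). Most controls were above most ethanol-treated mice, with overlap. On chip 3 alone the difference was -0.25 (adjusted p = 0.262 by limma), and with chip as a block it was -0.25 (adjusted p = 0.524).

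Junb had 8.64, 8.96 and 9.40 in ethanol-treated mice and 9.02, 9.18 and 9.51 in controls, a difference of -0.22 (SE 0.06, adjusted p = 0.00731 by limma). On chip 3 it differed by -0.29 (adjusted p = 0.0427), and with chip as a block by -0.29 (adjusted p = 0.122). Fos and Egr1 did not pass, at -0.06 (adjusted p = 0.611 by limma) and -0.05 (adjusted p = 0.533), and both had the opposite sign on chip 3, at 0.13 and 0.10. Egr2 was lower without a chip term (-0.22, adjusted p = 0.0414 by limma), but had 0.20 on chip 3, and Egr4 had -0.11 and 0.14.

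Of the 13 rapid transcription factors, 1 was higher and 5 were lower in ethanol-treated mice at an FDR below 10%. Of the 19 effectors 1 was higher and 7 were lower, where 10.3% of all genes were higher and 14.3% lower. On chip 3 alone the numbers were 2 and 1, and 2 and 3, where 8.88% of all genes were higher and 8.54% lower. Vgf was lower (-0.55, adjusted p = 3.92e-05 by limma), with -0.42 on chip 3 (adjusted p = 0.0272) and an adjusted p of 0.137 with chip as a block. Jun had -0.22 (adjusted p = 0.000119) and -0.21 on chip 3 (adjusted p = 0.0427). Fosb had -0.18, Nrn1 -0.21 and Nptx2 -0.18, of which Nrn1 alone passed an FDR of 10% on chip 3 (adjusted p = 0.0801). Homer1 was higher by 0.19 (adjusted p = 0.0142 by limma) and had 0.13 on chip 3 (adjusted p = 0.333). With chip as a block, where 6.65% of all genes passed, 2 of the 13 and 1 of the 19 did. They were Bdnf, higher by 0.41 (adjusted p = 0.0189 by limma, and 0.00629 on chip 3), Bhlhe40, higher by 0.27 (adjusted p = 0.0891, and 0.0507 on chip 3), and Jun, with -0.21 (adjusted p = 0.0778). Without a chip term, Bdnf had -0.01 and Bhlhe40 -0.07.

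**Figure D5:**
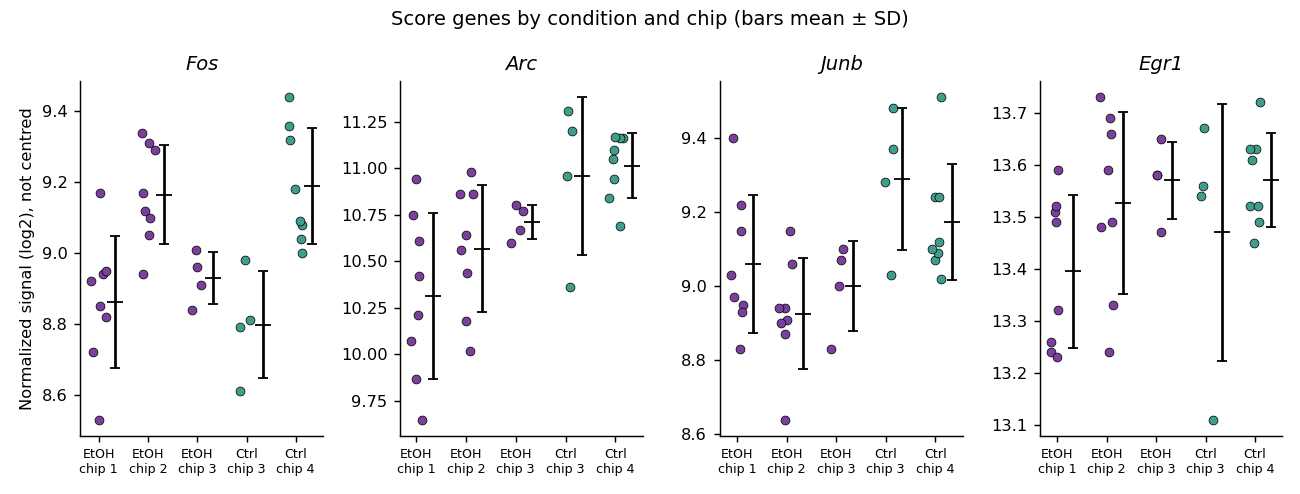
Normalized log2 signal (vertical axis, not starting at 0 and different for each gene) of Fos, Arc, Junb and Egr1 in the 5 groups of condition and chip, with a point for each array and mean ± SD bars. Chip 3 holds both conditions, and differences of ethanol-treated minus control mice there were 0.13, -0.25, -0.29 and 0.10.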

How the data were processed

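FCtx RNA of 32 mice was profiled on Illumina MouseRef-8 v2.0 BeadChips. The intensities, as the authors deposited them, are linear mean bead signals per probe that were not normalized. Next to each signal the authors deposited its detection p-value, and as other values the bead standard error and bead number. Background treatment is not given in the sources used here. Per the labels, the submitters used lumi and limma. Signals were converted to log2 and quantile-normalized. Of 25697 probes, 10187 had a detection p below 0.01 on at least 24 arrays, and the brightest was taken per gene (1741 genes had several). Symbols were updated through Entrez identifiers to RefSeq (23788 probes). A tier of 3 levels and 5 condition-by-chip blocks were fitted with limma 3.58.1 in R 4.3.3, with the data.table package at version 1.17.8 (25 residual degrees of freedom), with Benjamini-Hochberg adjustment and thresholds of 1%, which the study used for genes, and 10%. Intervals of differences are 95% intervals from this fit.

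The score, the tiers, the gene lists and the tests were chosen with earlier results of these data known. The genes named are the 4 score genes, the tested members of both activity lists and up to 3 of the largest differences of each other list, while genes chosen after their values were seen are marked as such. The rule would have added genes past an FDR of 10%, and there were 0. The fits were tested on simulated data with independent noise per gene and tiers fixed beforehand. Such data cannot show how the fits behave when tiers are drawn from measured values that correlate with other genes. Figures were drawn in Python 3.11.15 with numpy 2.4.6, pandas 2.3.3 and matplotlib 3.10.9. Alternatives changed the transform, background, normalization, filters, probes, position, tiers, score, chips, arrays, weights and cell content covariates. The number of arrays limits the precision: the median within-group SD of a gene was 0.119 (log2).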

Additional observations from a re-analysis of the deposited data

Results flagged for a closer look

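Of 51 groups of arrays examined, 3 held an array whose distance to its nearest neighbour was large for the range of the group, where chance gives about 1 in 20. Junb had a log2 level of 9.51 on the array of control C66 on chip 4, where the other 7 controls lay between 9.02 and 9.24. That array had the fewest detected probes of all (9480), and it is in neither tier. The centred value of Kcnip2 was 0.20 on the array of ethanol-treated mouse A44, among 10 lowest arrays of which the next was at -0.04. The centred value of 0610010K14Rik, a clone without a gene name, was -0.07 on the array of A21, where the others of the 10 lowest arrays lay between 0.07 and 0.21. The part of any of these arrays in the results was tested only by leaving them out.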

How the results depend on the processing

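No paired analysis was possible because mouse numbers are not shared between conditions or tiers. Genes lower at an FDR below 10% numbered 0 under every alternative run. Genes higher at that FDR numbered 0 in the main comparison, 2 with median scaling (Egr2 and Timm44) or array weights (Egr2 and Egr4), and 1 each with position as a covariate, with centred values and no block, without chip 1, and with position and list levels together (Egr4 in each), or with a continuous score, without or with position (Egr2, also the 1 gene at an FDR below 1%). Leaving out 1 array gave 0 to 3, with 0 at 1%, 357 to 695 genes at an unadjusted p below 0.05, and list medians of -0.002 to 0.026 for rapid transcription factors and 0.038 to 0.069 for effectors.

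Against 498 in the main comparison, genes at an unadjusted p below 0.05 numbered 2227 with median scaling, 979 over all probes without a detection filter, 316 with position as a covariate, 243 with the score centred within position, 213 over the 12 middle arrays, 310 for a score without Junb, 891 without Egr1, 318 without chip 4, 298 with list levels as covariates, 325 with list levels and position, and 239 with a continuous score and position. The medians of the rapid transcription factors and effectors were 0.13 and 0.179 with median scaling and -0.072 and 0.197 over the middle arrays. The cause was not tested. Median scaling also shifted all genes, and its score and tiers were drawn anew from the rescaled values.

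Over the 12 middle arrays alone, whose scores span a narrow range, 0 genes passed an FDR of 10% by limma, and slopes turned negative for Egr4 (-0.07, SE 0.45), Npas4 (-0.15), Csrnp1 (-0.79), Homer1 (-0.06), Tspyl1 (-0.03), Hspa8 (-0.53), Prrt1 (-0.41) and Ap1s1 (-0.48). Egr2 kept its sign there (0.46, SE 0.37). Median scaling turned Gad1 (0.14), Cdhr1 (0.04) and Scgn (0.03), and Cdhr1 was 0.01 with list levels and 0.00 with list levels and position, near 0 by construction since Cdhr1 is part of the olfactory bulb level.

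For ethanol against control, chip as a block and chip 3 alone share 1 difference per gene by design. It turned for Fos (0.13), Egr1 (0.10), Egr2 (0.20) and Egr4 (0.14). Arc (-0.25) no longer passed an FDR of 10% in either, and Junb (-0.29) no longer passed with the block. With the block, where 6.65% of all genes passed in either direction, 1 rapid transcription factor and 0 effectors were lower. On chip 3 the rapid factors had 2 higher and 1 lower, and the effectors 2 and 3. Of all genes, 8.88% were higher and 8.54% lower there. Median scaling turned Fos (0.01), left Junb short of the threshold (-0.14), and gave 3 lower rapid factors, 0 higher and 2 lower effectors. The variance-stabilizing transform, background correction, the stricter detection filter, the 20 arrays of the tiers alone and 8 against 8 arrays changed no count by over 1.5 times. The 3 alternatives added after seeing the data were the fit without C66 and those joining position with list levels or with a continuous score. The brightness of probes over background limits which activity genes can be read.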
